A study of Mus musculus with 36 samples.

Results

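The mouse cells described here lacked all Polycomb-like proteins (PHF1, MTF2, PHF19), and the comparison asks which expression changes of the transition from embryonic stem cells (ESCs) to epiblast-like cells (EpiLCs) take place without them. The members were the 3 TKO EpiLC libraries and the 3 TKO ESC libraries of a poly(A) RNA-seq series, chosen by their labels, so 6 of 36 libraries. All 55401 genes of the count files entered, and 12684 of them passed the mean count minimum of 15 and were tested. ESCs had been grown in GMEM with 20% serum, LIF and 2i, the pair of inhibitors CHIRON99021 (3 µM, against GSK3) and PD0325901 (1 µM, against MEK). EpiLCs came from the same line after 2 days on fibronectin in NDiff227 with activin A at 20 ng/mL, bFGF at 12 ng/mL and 1% serum replacement. The TKO line (labelled PCL1-3 TKO) was set against its wild-type line PclWT and against QKO, which lacks JARID2 in addition, each with 3 EpiLC and 3 ESC libraries in the same media. A further wild-type line, J2WT, came from another laboratory and was used to see which differences held against a second wild type. All lines are labelled C57BL/6. Each genotype is a single line, so genotype and clone cannot be told apart, and the labels do not state whether replicates are independent cultures. If they are not, every p-value below reflects technical variation alone.

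PRC2 is the enzyme complex that places the repressive mark H3K27me3 on histone H3 at the promoters of developmental genes. It exists in alternative forms: the Polycomb-like proteins, which bind DNA rich in unmethylated CG, define PRC2.1, and JARID2 belongs to PRC2.2. ESCs in 2i model the naive epiblast before implantation, and EpiLCs model the formative epiblast after it, a step in which naive transcription factors are shut off, the de novo DNA methyltransferases come on, and PRC2 leaves some promoters and arrives at others.

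The 24 libraries used held between 6784578 counts (TKO EpiLC replicate 3) and 17154437 counts (J2WT EpiLC replicate 1) in genes. The TKO libraries resembled each other closely: between 14 and 57 genes differed more than 2-fold within a pair of TKO EpiLC libraries, and between 21 and 39 within a pair of TKO ESC libraries. PclWT EpiLC replicate 1 stood apart, with 1521 and 1737 genes more than 2-fold from the other 2 PclWT EpiLC libraries, which differed from each other at 21 genes. The overall counts of differences from PclWT, several list counts and some single genes are therefore given with and without it. Other results that use PclWT include it. As a check of the labels, Phf1 was at 0.277, 0.106 and 0 CPM (counts scaled to a common library size) in TKO EpiLCs and at 0.509, 0.66 and 0.638 CPM in TKO ESCs, against 10.1, 6.32 and 7.39 CPM in PclWT EpiLCs and 6.42, 9.6 and 8.76 CPM in PclWT ESCs. Mtf2 stood at 45.1, 50.1 and 40.9 CPM in TKO EpiLCs and at 41.7, 46.2 and 45.5 CPM in TKO ESCs, against 204, 236 and 242 CPM in PclWT EpiLCs and 437, 426 and 427 CPM in PclWT ESCs. Both were far lower in every TKO library. Phf19 checks nothing here, since its reads were few in all lines (2.95, 2.22 and 2.29 CPM in TKO EpiLCs, against 2.93, 2.9 and 3.44 CPM in PclWT EpiLCs) and gene counts do not show which exon a read came from.

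Without the Polycomb-like proteins, 2857 of 12684 tested genes changed more than 2-fold between the stages (22.5%, edgeR quasi-likelihood test, Benjamini-Hochberg adjusted p under 0.05): 1747 were higher in TKO EpiLCs (13.8%) and 1110 were lower (8.75%). In PclWT, 1944 of 12764 tested genes were called (15.2%), 1108 higher in EpiLCs (8.68%) and 836 lower (6.55%). Without PclWT EpiLC replicate 1 these were 1221 higher and 891 lower. In QKO 2382 of 12498 were called, 1486 higher (11.9%) and 896 lower (7.17%). In J2WT, sequenced more deeply, 4192 of 13877 genes were called (30.2%), 2111 higher (15.2%) and 2081 lower (15%). These counts depend on the spread within each line, so the lines are compared through the differences of their stage changes.

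Most stage changes of the matched wild type also took place in the TKO line. Of the 982 genes higher in PclWT EpiLCs that were tested in TKO, 794 rose in TKO EpiLCs (80.9%, against 13.8% of all genes), 181 were not called and 7 fell. Of 769 genes lower in PclWT EpiLCs, 576 fell in TKO (74.9%, against 8.75%), 189 were not called and 4 rose. Their median log2 stage change was 1.82 in TKO and 1.47 in PclWT for the first set, and -1.64 in TKO and -1.61 in PclWT for the second. PclWT chose these genes, so its own medians carry that choice. Genes chosen in J2WT, which shares no library with either, gave a comparison free of it: among 1566 genes higher in J2WT EpiLCs and tested in both lines, 952 rose in TKO and 644 rose in PclWT, with median log2 stage changes of 1.26 in TKO and 0.85 in PclWT. Among 1565 genes lower in J2WT EpiLCs, 702 fell in TKO and 535 fell in PclWT, with medians of -0.90 in TKO and -0.65 in PclWT.

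Read from the TKO side, 1559 of the 1747 genes that rose were tested in PclWT, and 794 of them rose there, 4 fell and 761 were not called. For 403 of the 1747, some of them not tested in PclWT alone, the difference between the lines was itself called, with the larger rise in TKO. Of the 1110 genes that fell, 1021 were tested in PclWT, where 576 fell, 7 rose and 438 were not called. Among all 1110, 267 had a called difference with the deeper fall in TKO. Over the 12185 genes tested in both, the log2 stage changes of TKO and PclWT had a Pearson r of 0.827 (0.836 over 12173 genes without PclWT EpiLC replicate 1). The correlation is across genes, which are not independent replicates, and is given as a description.

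**Figure D1:**
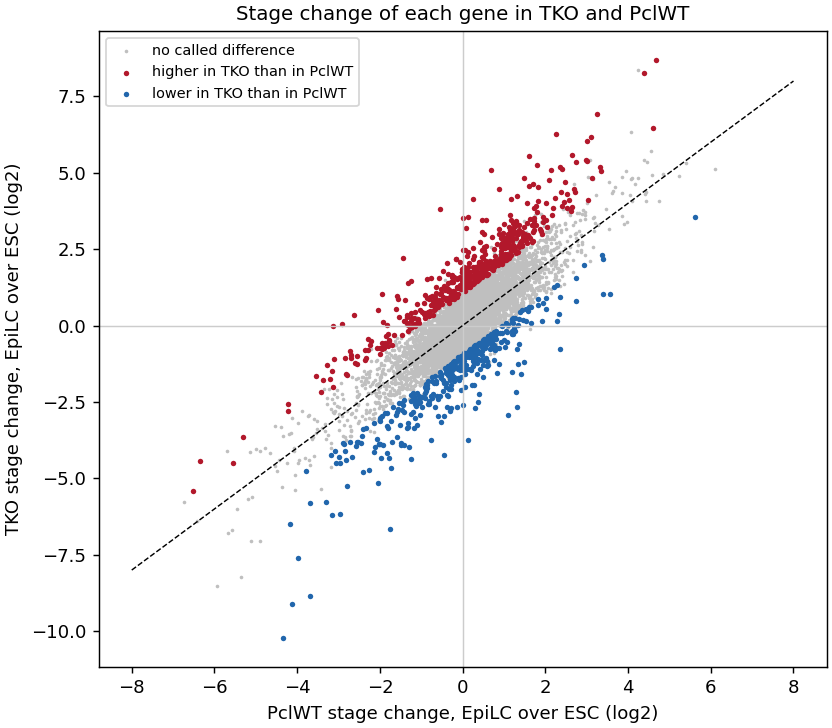
Log2 stage change (EpiLC over ESC) in TKO on the vertical axis against that in PclWT on the horizontal axis, 1 point for each of 12185 genes tested in both lines, each stage with 3 libraries. The 487 red points had a called difference with the higher stage change in TKO and the 378 blue points one with the lower stage change in TKO, while most points lie along the diagonal (r = 0.827).

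Most naive pluripotency genes fell in TKO EpiLCs, though some kept substantial RNA levels. Of 19 genes on the list, all tested, 16 fell (84.2%, against 8.75% of all genes) with a list median of -2.92 on the log2 scale, against -3.12 in PclWT, where 16 also fell. Klf4, a Krüppel-like transcription factor of the naive state (chr4:55527143-55532466, minus strand, GRCm38), stood at 29.4, 32.2 and 33.1 CPM in TKO EpiLCs and at 732, 713 and 684 CPM in TKO ESCs, a log2 change of -4.49 (SE 0.06, adjusted p = 2.86e-19). PclWT EpiLCs had 5.41, 9.01 and 7.39 CPM, against 308, 357 and 355 CPM in PclWT ESCs. The stages did not overlap in either line, and the TKO EpiLC libraries lay above every PclWT EpiLC library. Nanog, a homeobox factor of the naive network, was at 202, 194 and 214 CPM in TKO EpiLCs and at 1637, 1526 and 1475 CPM in TKO ESCs, a log2 change of -2.92 (SE 0.06, adjusted p = 1.69e-17). The log2 change in TKO was -7.05 for Spic, an ETS factor, -5.42 for Jam2, a junction protein, -4.59 for Tfcp2l1, a further naive factor, and -4.05 for Prdm14, a repressor of de novo methylation genes. The 3 list genes that rose in TKO were Dusp6 (3.63), a phosphatase that dampens ERK, Gbx2 (1.53), a homeobox factor, and Dppa3 (1.36), a maternal factor that guards DNA from methylation changes.

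Several naive factors fell less far in TKO than in both wild types. Tbx3, a T-box factor (chr5:119670669-119684724, plus strand), had 45.8, 41 and 42 CPM in TKO EpiLCs and 534, 543 and 533 CPM in TKO ESCs, against 7.44, 8.6 and 10.9 CPM in PclWT EpiLCs and 331, 367 and 358 CPM in PclWT ESCs. Its log2 stage change was 1.60 higher in TKO than in PclWT (SE 0.16, adjusted p = 9.74e-05) and 2.28 higher than in J2WT (adjusted p = 9.47e-19). Esrrb, an orphan nuclear receptor (chr12:86361117-86521628, plus strand), stood at 192, 173 and 194 CPM in TKO EpiLCs and at 1114, 1096 and 1097 CPM in TKO ESCs, against 34.6, 46.3 and 51.6 CPM in PclWT EpiLCs and 785, 848 and 802 CPM in PclWT ESCs. The difference was 1.59 from PclWT (SE 0.18, adjusted p = 0.000164) and 1.29 from J2WT. TKO EpiLCs thus retained more Tbx3 and Esrrb RNA than any PclWT EpiLC library. Klf4 (1.01 from PclWT, 1.75 from J2WT) and Jam2 (1.04 and 1.35) were the other naive genes with a called difference in the same direction from both, but the Klf4 difference from PclWT was 0.84 without PclWT EpiLC replicate 1, 0.999 without PclWT ESC replicate 3 and 0.98 without TKO EpiLC replicate 3, and so no longer above 1. In all, 6 of the 19 naive genes had a called difference above PclWT and 3 (Klf2, Tcl1 and Tdh) below it, against 4.26% and 3.22% of all 12812 genes tested for this difference (7.48% in either direction). The 3 that fell further than in PclWT had differences of 0.32 (Klf2), 0.72 (Tcl1) and 0.44 (Tdh) from J2WT. The comparisons with PclWT and J2WT share the TKO libraries.

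The formative genes came on. Of 24 genes on the list, 23 were tested in TKO, 18 rose (78.3%, against 13.8% of all genes), and Foxd3, a forkhead factor, fell by 1.45. The list median was 1.97 in TKO, 1.22 in PclWT (22 tested, 14 higher and 3 lower) and 3.65 in J2WT (24 tested, 20 higher). Dnmt3a, a de novo DNA methyltransferase (chr12:3806007-3914443, plus strand), reached 1503, 1505 and 1564 CPM in TKO EpiLCs, against 83.1, 87.9 and 89.7 CPM in TKO ESCs, a log2 change of 4.14 (SE 0.05, adjusted p = 1.95e-19). In PclWT it was at 399, 509 and 493 CPM in EpiLCs and at 203, 202 and 215 CPM in ESCs, and the difference between the lines was 2.91 (SE 0.15, adjusted p = 1.15e-06). Against J2WT, in which Dnmt3a rose by 4.47, the difference was -0.35. Dnmt3b, the related methyltransferase, was at 571, 574 and 591 CPM in TKO EpiLCs and at 90.2, 85.5 and 80.2 CPM in TKO ESCs (2.77, SE 0.05, adjusted p = 1.19e-17). Otx2, a homeobox factor that directs the formative state, was low but clearly separated, with 13.3, 13.2 and 14.1 CPM in TKO EpiLCs and 1.32, 1.1 and 1.59 CPM in TKO ESCs (3.32, SE 0.18, adjusted p = 1.37e-11).

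For several formative markers the rise in TKO was small beside that in J2WT. Fgf5, a growth factor used as a marker of the formative epiblast, had 3.6, 3.91 and 4.71 CPM in TKO EpiLCs and 0.509, 0.22 and 0.213 CPM in TKO ESCs (3.60, SE 0.35, adjusted p = 4.27e-08). PclWT EpiLCs held 26 Fgf5 counts over the 3 libraries and PclWT ESCs none, which gives an at least 8.52-fold rise with 3 counts over the group as the floor. J2WT EpiLCs, in contrast, had 60.1, 59.7 and 58 CPM, and the TKO stage change differed from that of J2WT by -6.05. Pou3f1, a POU factor of the primed state, was at 111, 115 and 110 CPM in TKO EpiLCs and at 22.7, 24 and 20.8 CPM in TKO ESCs, against 171, 104 and 99.1 CPM in PclWT EpiLCs and 11.2, 11.5 and 13.2 CPM in PclWT ESCs. Its TKO EpiLC values lay below PclWT EpiLC replicate 1 but above the other PclWT EpiLC libraries, and its TKO ESC values lay above those of PclWT. The difference in stage change from PclWT was -1.10 (SE 0.24, adjusted p = 0.00984), -0.80 without PclWT EpiLC replicate 1 and so no longer past 1, and that from J2WT was -6.38. Of the 24 formative genes, 16 had a called difference below J2WT and 1, Etv4, above it (of all 13452 genes 19.7% were called against J2WT, 11% above it and 8.71% below it), whereas against PclWT 3 of 22 were called above and 2, Pou3f1 and Zic2, below. Without PclWT EpiLC replicate 1 those counts were 3 and 0. The Zic2 difference was just past 1 in size and fell short of it under 14 alternatives, 11 of them a single library left out (0.932 to 0.999 in size). Etv4, an ETS factor downstream of FGF, was the formative gene with the larger rise in TKO than in both wild types (1.03 from PclWT and 1.93 from J2WT).

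**Figure D2:**
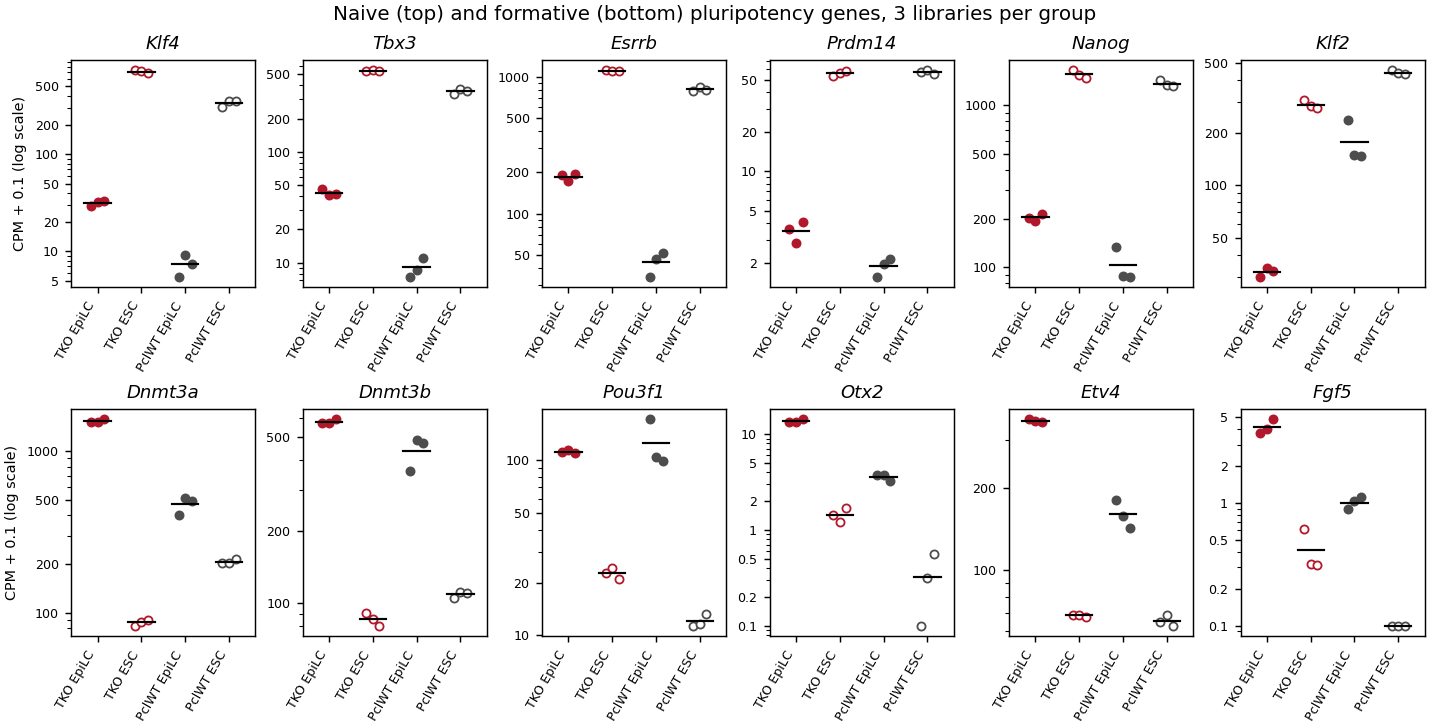
CPM of naive and formative genes in each library (log axis, 0.1 added), with TKO EpiLCs, TKO ESCs, PclWT EpiLCs and PclWT ESCs from left to right, filled points for EpiLCs, open points for ESCs and a bar at each group mean (n = 3 libraries). Klf4 and Tbx3 drop by an order of magnitude or more in both lines, with the TKO EpiLC points above those of PclWT EpiLCs. Esrrb drops less in TKO (-2.56 on the log2 scale) than in PclWT (-4.21), and Klf2 falls further in TKO (-3.17) than in PclWT (-1.33). Nanog drops by 2.92 in TKO and 3.72 in PclWT, with no called difference. Dnmt3a reaches 1503 to 1564 CPM in TKO EpiLCs against 399 to 509 CPM in PclWT EpiLCs.

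Most core pluripotency genes, like most genes tested, were not called in TKO (22.5% of all genes were called in either direction). Of 10 genes on the list, Tdgf1, a Nodal co-receptor, fell by 1.43 (10%, against 8.75% of all genes). The other 9 were not called, with Pou5f1 at -0.69 and Sox2 at -0.95 on the log2 scale. In PclWT, where 6.55% of all genes were called lower, 3 of the 10 were, Tdgf1 (-1.93), Sall4 (-1.24) and Sox2 (-1.08). No difference from PclWT or QKO was called among the 10, and against J2WT only Tdgf1 was called (-1.18). In the LIF and STAT3 list, 4 of 9 tested genes fell (44.4%, against 8.75% of all genes) and none rose. Stat3, the transcription factor that relays LIF, was at 34.7, 30.1 and 27.9 CPM in TKO EpiLCs and at 176, 179 and 183 CPM in TKO ESCs (-2.52, SE 0.06, adjusted p = 3.3e-16). Its feedback inhibitor Socs3 was at 8.4, 9.08 and 7.14 CPM in TKO EpiLCs and at 119, 122 and 128 CPM in TKO ESCs (-3.88, SE 0.08, adjusted p = 2.79e-17). Pim3 (-1.60) and Junb (-2.54) were the other 2 that fell.

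Genes of the FGF and ERK feedback loop rose in 9 of 17 tested cases (52.9%, against 13.8% of all genes) and fell in 1 (5.88%, against 8.75%), Fgf4 (-1.10). Dusp6 was at 317, 330 and 333 CPM in TKO EpiLCs and at 25.9, 26.5 and 27.1 CPM in TKO ESCs (3.63, SE 0.06, adjusted p = 9.93e-19), a complete separation of the stages. Egr1, an immediate early factor, rose by 3.53, Dusp4 by 3.36 and the receptor gene Fgfr2 by 2.67. The change of medium removes LIF and the MEK inhibitor in every line, so stage and medium cannot be told apart in any of these comparisons.

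Cholesterol synthesis genes rose in both TKO and PclWT. Of 24 enzymes and SREBP2 targets on the list, 20 rose in TKO (83.3%, against 13.8% of all genes), with a median of 1.49, while in PclWT 19 rose with a median of 1.64, and none of the 24 had a called difference from PclWT, with or without PclWT EpiLC replicate 1. Hmgcs1, which makes HMG-CoA, was at 376, 361 and 388 CPM in TKO EpiLCs and at 156, 163 and 159 CPM in TKO ESCs (1.24, SE 0.05, adjusted p = 6.11e-14). Sqle, squalene epoxidase, was at 301, 296 and 311 CPM in TKO EpiLCs and at 131, 136 and 131 CPM in TKO ESCs, and its stage change differed from that of PclWT by -0.04 (SE 0.10, adjusted p = 0.813). The stages did not overlap for either gene. Ebp, a sterol isomerase of the same route, was the only member that fell (-2.00), and it also fell in PclWT (-1.54). Against J2WT, 1 of the 24 was called above (Nsdhl, 1.02) and 1 below.

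Most PRC2 subunit genes, like most genes tested, were not called in TKO. Of the 6 core subunits, only Eed, which binds H3K27me3, was called, and it fell (16.7%, against 8.75% of all genes). Eed had 125, 123 and 118 CPM in TKO EpiLCs and 296, 278 and 275 CPM in TKO ESCs (-1.20, SE 0.05, adjusted p = 2.27e-13). It fell in PclWT (-1.16) and J2WT (-1.10) as well. The catalytic subunit Ezh2 had a log2 change of 0.01 (adjusted p = 0.84) and Suz12 one of -0.46. Among 7 accessory subunits tested, Epop fell (-1.57) and Lcorl rose (1.09), 14.3% each, against 8.75% and 13.8% of all genes. Jarid2, the PRC2.2 subunit that the TKO line retains, had a change of 0.27. Of 25 PRC1 subunits tested, Yaf2 (1.21), Scml2 (1.41) and Auts2 (1.63) rose (12%, against 13.8% of all genes) and none fell.

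**Figure D3:**
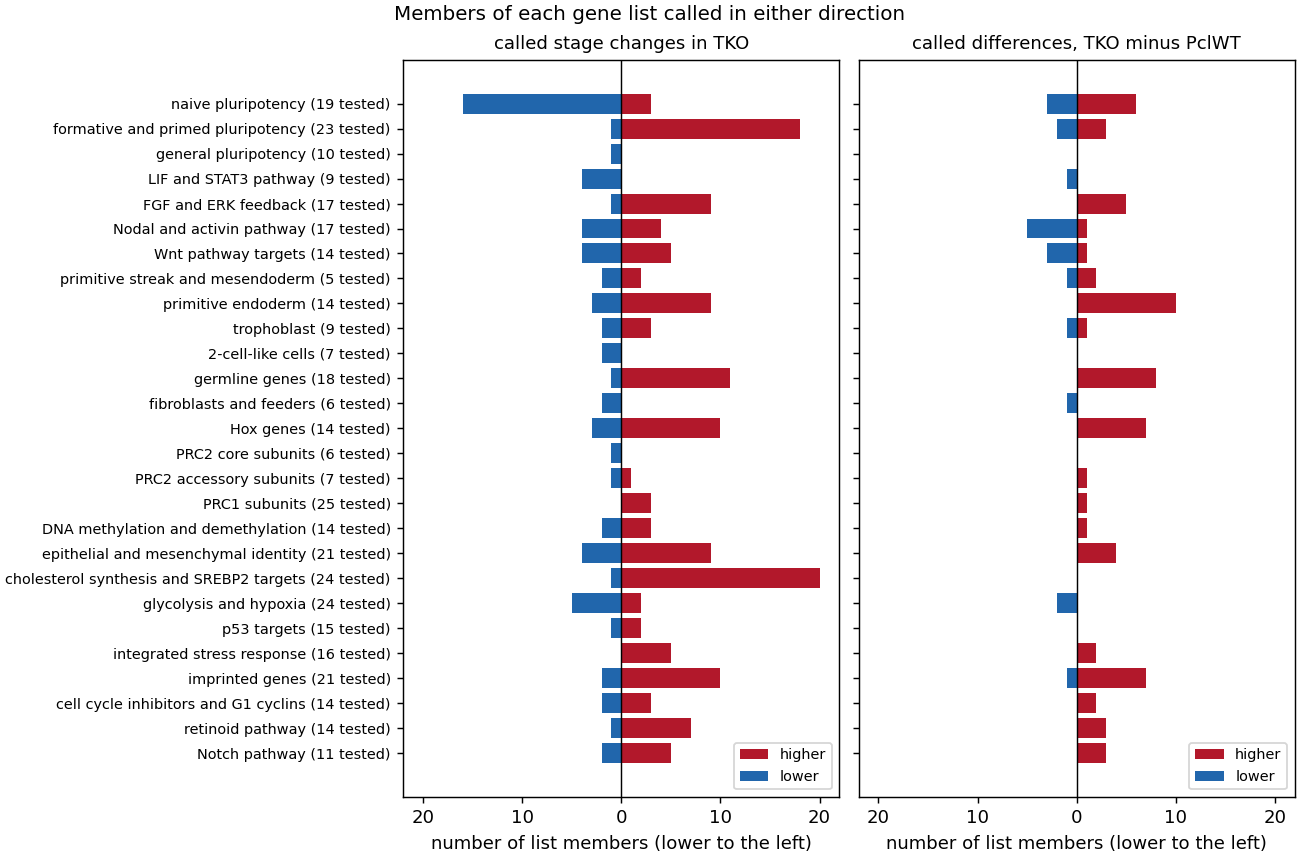
Number of list members called higher (right of 0) or lower (left of 0), with the stage change of TKO (EpiLC against ESC, 3 libraries each) in the left panel and the difference between the TKO and PclWT stage changes in the right panel, for lists with at least 5 tested members. Of 24 cholesterol genes, 20 are called higher and 1 lower on the left and none on the right. Primitive endoderm genes give 10 and Hox genes 7 called differences, all with the higher stage change in TKO.

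The 10 genes with the largest rises in TKO EpiLCs had at most 0.916 CPM in any TKO ESC library. Gsx1, a homeobox factor of the developing brain, had 11.4, 12.2 and 11.3 CPM in TKO EpiLCs (318 counts) and no counts in TKO ESCs, an at least 110-fold rise over the floor of 3 counts. Wt1, a zinc finger factor of kidney and gonad, had 92.2, 92.7 and 92 CPM in TKO EpiLCs and 0.407, 0.11 and 0.106 CPM in TKO ESCs (8.68, SE 0.16, adjusted p = 8.51e-18). The milk protein gene Csn3 rose at least 50.5-fold and Artn, a ligand of the GDNF family, at least 41.8-fold. With 1 to 3 counts in TKO ESCs, Ndnf rose 503-fold (95% counting interval 89.9 to 19900), Insm1, a zinc finger factor of endocrine and neuronal cells, 342-fold (117 to 1660), Hoxb1 256-fold (45.6 to 10200) and Lhx1, a LIM homeobox factor, 170-fold (30.1 to 6760). Such intervals cover counting error only. Cubn, an endocytic receptor of visceral endoderm and kidney, and Car4, a carbonic anhydrase, completed the 10 largest, at 7.85 and 6.91 on the log2 scale.

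At the other end, Elobl had 455 counts in TKO ESCs (15.9, 15.7 and 16.6 CPM) and none in TKO EpiLCs, at least 146-fold lower in EpiLCs. The cation channel gene Trpm1 was 653-fold lower in TKO EpiLCs (180 to 5400), Xaf1, an interferon-induced gene, 543-fold lower (150 to 4490), Serpinb1a, a protease inhibitor, 269-fold lower, Hoxc12 227-fold lower (40.3 to 8990), Spic 181-fold lower and Cemip, a hyaluronan-binding protein, 156-fold lower (42.9 to 1300). Pramel7 was at least 45-fold lower, Pramel6 at least 37-fold lower and the receptor gene Mrgprd at least 30.5-fold lower. Pramel6 and Pramel7 are close copies of each other, and the counting could have split their reads.

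The study sorted PRC2-bound promoters into recruited, displaced and maintained classes by the change of SUZ12 binding between wild-type ESCs and EpiLCs. A gene was assigned to a class here where its transcription start lay within 2000 bp of a site. These classes come from other assays of the same study and were not made from the TKO RNA counts. Genes of the recruited class fell in TKO although the Polycomb-like proteins were missing: of 343 tested, 168 fell (49%, against 8.75% of all genes) and 13 rose, with a median of -0.96. In PclWT, 160 of 334 fell with a median of -0.92. Of the 159 recruited genes that fell in PclWT and were tested in TKO, 134 fell in TKO as well and 1 rose. Chosen instead in J2WT, 244 recruited genes that fell there were tested in both lines, of which 152 fell in TKO (median -1.27) and 147 in PclWT (median -1.31). Recruited genes made up 15.1% of the 1110 genes that fell in TKO and 2.7% of all tested genes.

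Displaced genes rose. Of 74 tested, 63 were higher in TKO EpiLCs (85.1%, against 13.8% of all genes) and none was lower, with a median of 2.15, against 52 of 74 and a median of 1.64 in PclWT. All 52 that rose in PclWT also rose in TKO. J2WT gave the larger median of 3.73 (68 of 77 higher). Of 1055 tested genes in the maintained class, 458 rose (43.4%), 77 fell and the median was 0.75, while in PclWT 286 of 1051 rose, 59 fell and the median was 0.50. The copy of the maintained list used here was shortened (1998 sites), so this class is described only. Genes without a listed site had a median of -0.04 in TKO.

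Differences between the lines were seen in each class. Among recruited genes, 26 of 340 had a stage change called higher in TKO than in PclWT (7.65%, against 4.26% of all genes) and 36 one called lower (10.6%, against 3.22%). Measured against both wild types, 15 were higher and 9 lower, and 13 were lower than in PclWT but higher than in J2WT. Among displaced genes, 14 of 74 were called higher than in PclWT (18.9%) and 2 lower (2.7%). However, 1 was higher than in both wild types and 8 were higher than in PclWT and lower than in J2WT. Among maintained genes, 143 of 1079 were called higher (13.3%) and 49 lower (4.54%), of which 39 were higher and 20 lower against both.

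**Figure D4:**
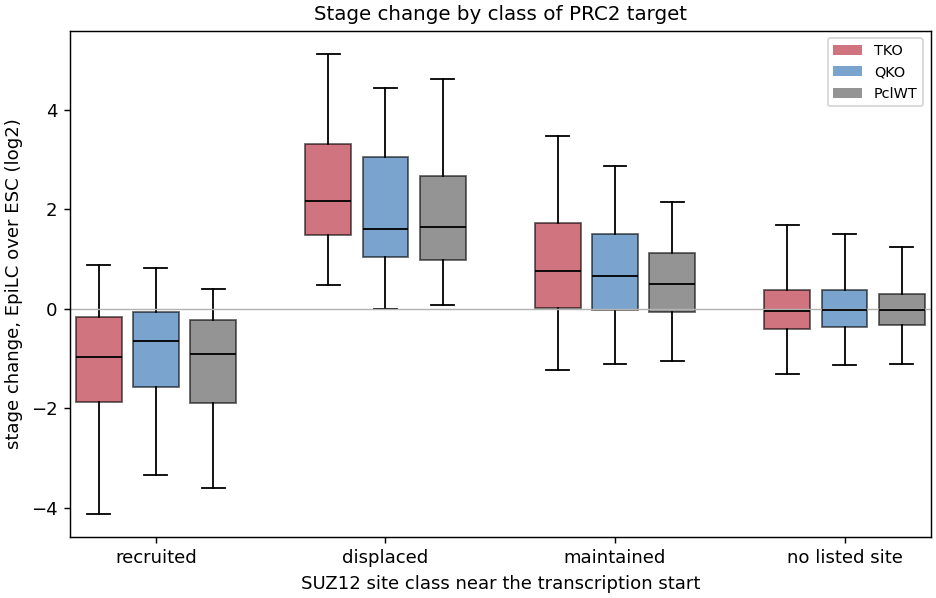
Log2 stage change (EpiLC over ESC) of genes in each PRC2 class and of genes with no listed site, for TKO, QKO and PclWT from left to right. Boxes show the median and quartiles over genes and whiskers the 5th to 95th percentile, with recruited genes at medians of -0.96 in TKO, -0.65 in QKO and -0.92 in PclWT and displaced genes at 2.15, 1.60 and 1.64.

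Promoters of recruited and displaced genes with large differences from PclWT are shown because Polycomb-like proteins bind DNA rich in CG. Of 14 genes looked up by symbol in the RefSeq set (GRCm38.p6), in order of their differences, 10 matched, and the other 4 were Hoxb9, Ndrg1, Bcl6b and Pou3f1. Of the 10 windows 5 are printed, each 250 bases upstream of the transcription start, 5′ to 3′ on the gene's strand, with every CG in capitals. Sp8 (chr12:118846079-118846328, plus strand), Nrp2 (chr1:62703067-62703316, plus strand) and Sp5 (chr2:70474673-70474922, plus strand) belong to the recruited class, and Tmem54 (chr4:129105298-129105547, plus strand) and Bcl11a (chr11:24080445-24080694, plus strand) to the displaced class.
Sp8: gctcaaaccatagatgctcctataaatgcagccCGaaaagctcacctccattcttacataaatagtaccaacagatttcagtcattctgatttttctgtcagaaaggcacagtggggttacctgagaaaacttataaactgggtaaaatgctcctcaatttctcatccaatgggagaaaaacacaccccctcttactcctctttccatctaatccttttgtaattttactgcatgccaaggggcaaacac
Nrp2: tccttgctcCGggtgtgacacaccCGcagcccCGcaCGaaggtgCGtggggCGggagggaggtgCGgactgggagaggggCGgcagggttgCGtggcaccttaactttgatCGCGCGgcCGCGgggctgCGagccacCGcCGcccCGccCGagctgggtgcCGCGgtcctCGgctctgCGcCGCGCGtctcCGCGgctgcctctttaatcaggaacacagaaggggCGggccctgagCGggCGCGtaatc
Sp5: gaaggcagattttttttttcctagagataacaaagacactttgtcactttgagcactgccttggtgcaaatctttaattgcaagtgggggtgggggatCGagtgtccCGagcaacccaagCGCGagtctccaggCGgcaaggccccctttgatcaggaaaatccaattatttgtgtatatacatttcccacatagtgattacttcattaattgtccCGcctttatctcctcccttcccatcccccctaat
Tmem54: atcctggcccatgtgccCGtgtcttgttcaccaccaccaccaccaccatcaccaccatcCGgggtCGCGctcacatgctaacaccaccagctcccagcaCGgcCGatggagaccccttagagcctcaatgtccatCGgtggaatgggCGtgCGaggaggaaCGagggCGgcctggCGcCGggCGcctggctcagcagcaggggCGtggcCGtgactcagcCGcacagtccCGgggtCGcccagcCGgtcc
Bcl11a: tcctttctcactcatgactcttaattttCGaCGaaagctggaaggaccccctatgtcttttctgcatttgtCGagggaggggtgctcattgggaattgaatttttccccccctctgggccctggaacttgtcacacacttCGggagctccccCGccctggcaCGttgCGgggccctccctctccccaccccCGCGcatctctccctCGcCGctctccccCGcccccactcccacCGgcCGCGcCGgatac

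The letters CG, searched on both strands, occur in 92.1% of all 32817 RefSeq windows of this length with a median of 6, and GCG (or its complement CGC, which overlaps CG) in 76.6% with a median of 3. The Sp8 window held 1 CG and no GCG, and the Nrp2 window held 32 CG and 27 GCG. Sp5 had 6 CG, Tmem54 20 and Bcl11a 16. The other windows had 18 (Gbx2), 14 (Aqp3), 13 (Dll1), 5 (Jph4) and 4 (Myl7), so these 10 windows ranged from nearly CG-free to CG-dense. A count of letters is a description of the window and not of binding.

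Sp8, a zinc finger factor, had 5.63, 5.17 and 4.71 CPM in TKO EpiLCs and 0.509, 0.33 and 1.28 CPM in TKO ESCs, against 1.01, 1.14 and 1.11 CPM in PclWT EpiLCs and 0.903, 0.655 and 0.91 CPM in PclWT ESCs. Its stage change was 2.42 higher than in PclWT (SE 0.51, adjusted p = 0.00762) and 2.34 higher than in J2WT (adjusted p = 0.000455). Nrp2, a semaphorin co-receptor, fell in PclWT (-1.57) and J2WT but was at 13.7, 12.1 and 14.7 CPM in TKO EpiLCs and 6.31, 8.36 and 7.34 CPM in TKO ESCs, a log2 change of 0.88 that did not reach the 2-fold threshold. The difference was 2.39 from PclWT (SE 0.31, adjusted p = 0.000419) and 4.72 from J2WT. The TKO EpiLC libraries were the highest of the EpiLC libraries of these 3 lines for both genes. Bcl11a, a zinc finger repressor, rose in TKO (28.2, 23.4 and 21.9 CPM in EpiLCs, against 2.54, 2.31 and 1.49 CPM in ESCs), but its stage change differed by -2.13 from that of PclWT (SE 0.46, adjusted p = 0.00888) and by -8.18 from that of J2WT. Both wild types had very low ESC levels, 0.201, 0.109 and 0.228 CPM in PclWT ESCs and no counts in J2WT ESCs.

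For Tmem54 and Sp5 the differences from PclWT and from J2WT had opposite signs, but that of Sp5 from J2WT was not called. Tmem54 had 10.1, 11 and 10.3 CPM in TKO EpiLCs and 0.204, 0.22 and 0.213 CPM in TKO ESCs, a stage change that differed by 3.88 from PclWT and by -4.70 from J2WT. Sp5, a Wnt target, had 0, 0.211 and 0 CPM in TKO EpiLCs and 10.6, 7.92 and 7.44 CPM in TKO ESCs, with a difference of -4.94 from PclWT (SE 0.69, adjusted p = 0.0006) and 3.61 from J2WT (adjusted p = 0.0641). For both genes the estimated TKO stage change lay between those of the wild types, PclWT on one side and J2WT on the other. For Sp5 only the PclWT side was a called difference.

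Over all genes, the stage change was called higher in TKO than in PclWT for 546 of 12812 genes (4.26%) and lower for 412 (3.22%). Without PclWT EpiLC replicate 1 the counts were 652 (5.1%) and 441 (3.45%) of 12784. Only part of these differences was also called against J2WT: of the 531 higher genes that could be tested against J2WT, 183 were called higher there too, 79 were called lower and 269 were not called, and of 406 lower genes 126 were called lower, 48 higher and 232 not. Over all 13452 genes tested against J2WT, 11% were called higher and 8.71% lower. Both comparisons use the same TKO libraries, so their calls are not independent. Because only part of the differences held, the gene groups below are given with both wild types.

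Primitive endoderm genes gave the most called differences for their number among the lists. In bulk RNA, more cells of a type and more RNA per cell cannot be told apart. Of 16 genes on the list 14 were tested in TKO, 9 rose (64.3%, against 13.8% of all genes) and 3 fell (21.4%, against 8.75%), and 10 of 14 had a stage change called higher than in PclWT (71.4%, against 4.26% of all genes), 11 without PclWT EpiLC replicate 1, and none lower. Gata6, the transcription factor that starts the primitive endoderm fate (chr18:11052064-11085635, plus strand), was at 22.3, 25.8 and 30.9 CPM in TKO EpiLCs and at 0.509, 0.55 and 0.851 CPM in TKO ESCs. It was at 0.451, 1.04 and 0.304 CPM in PclWT EpiLCs and at 1, 0.982 and 0.796 CPM in PclWT ESCs. J2WT lay between, with 5.83, 6.67 and 5.65 CPM in EpiLCs and 1.46, 1.05 and 1.16 CPM in ESCs. The rise in TKO was 5.33 (SE 0.22, adjusted p = 4.61e-13), 5.92 above the change in PclWT (SE 0.56, adjusted p = 5.5e-05, and 5.77 without PclWT EpiLC replicate 1) and 3.01 above that in J2WT (adjusted p = 2.55e-07).

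Pdgfra, a receptor that marks primitive endoderm, had 15.2, 14.6 and 17 CPM in TKO EpiLCs and 1.12, 0.66 and 1.49 CPM in TKO ESCs, against 1.24, 2.17 and 1.82 CPM in PclWT EpiLCs and 3.11, 2.62 and 1.82 CPM in PclWT ESCs. The difference was 4.30 from PclWT (SE 0.39, adjusted p = 4.34e-05) and 2.74 from J2WT (adjusted p = 2.86e-08). Dab2, an endocytic adaptor of the same lineage, had 45.9, 40 and 41.4 CPM in TKO EpiLCs and 3.77, 3.41 and 3.93 CPM in TKO ESCs, against 12.4, 17 and 17.5 CPM in PclWT EpiLCs and 14.6, 16.7 and 14.9 CPM in PclWT ESCs (difference 3.44, SE 0.21, adjusted p = 2.77e-06). For both genes the TKO EpiLC libraries were the highest of all and the TKO ESC libraries were no higher than those of PclWT. Col4a2, a basement membrane collagen, went in opposite directions: it was at 61, 53.9 and 60.9 CPM in TKO EpiLCs and at 26.5, 29.8 and 30.8 CPM in TKO ESCs, against 8.23, 14 and 12.9 CPM in PclWT EpiLCs and 42.1, 48.9 and 44.5 CPM in PclWT ESCs. Its stage change was 1.02 in TKO (SE 0.08, adjusted p = 1.13e-09) and -1.96 in PclWT, a difference of 2.91 (SE 0.23, adjusted p = 1.41e-05), and 1.54 above J2WT. The TKO value alone fell just below 1 when TKO ESC replicate 1 (0.96), TKO EpiLC replicate 1 (0.99) or TKO EpiLC replicate 3 (0.98) was left out.

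The list did not move as a block. Lama1 (-1.88), Lamc1 (-1.21) and Sparc (-1.55), matrix genes at high level, fell in TKO. The CPM summed over all 16 list genes were therefore lower in TKO EpiLCs (1332.84 to 1396.43) than in TKO ESCs (2155.45 to 2304.52), with 476.89 to 751.65 in PclWT EpiLCs and 1429.86 to 1549.35 in PclWT ESCs. Foxa2 (1.75, 2.11 and 2.43 CPM) and Hnf4a (1.11, 1.06 and 1.29 CPM) of TKO EpiLCs were under the count minimum. Cubn, Gata4, Sox17 and Lamb1 also exceeded PclWT, but against J2WT their differences were -0.10, -0.59, -0.03 and -2.68, and 4 of the 10 (Gata6, Pdgfra, Dab2 and Col4a2) were higher than in both. The other extraembryonic list, trophoblast, had 3 genes higher (33.3%, against 13.8% of all genes) and 2 lower (22.2%, against 8.75%) of 9 tested in TKO. Its summed level was 81.95 to 83.72 CPM in TKO EpiLCs and 104.85 to 112.51 CPM in TKO ESCs. Whether a fraction of cells accounts for the primitive endoderm RNA was not tested.

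**Figure D5:**
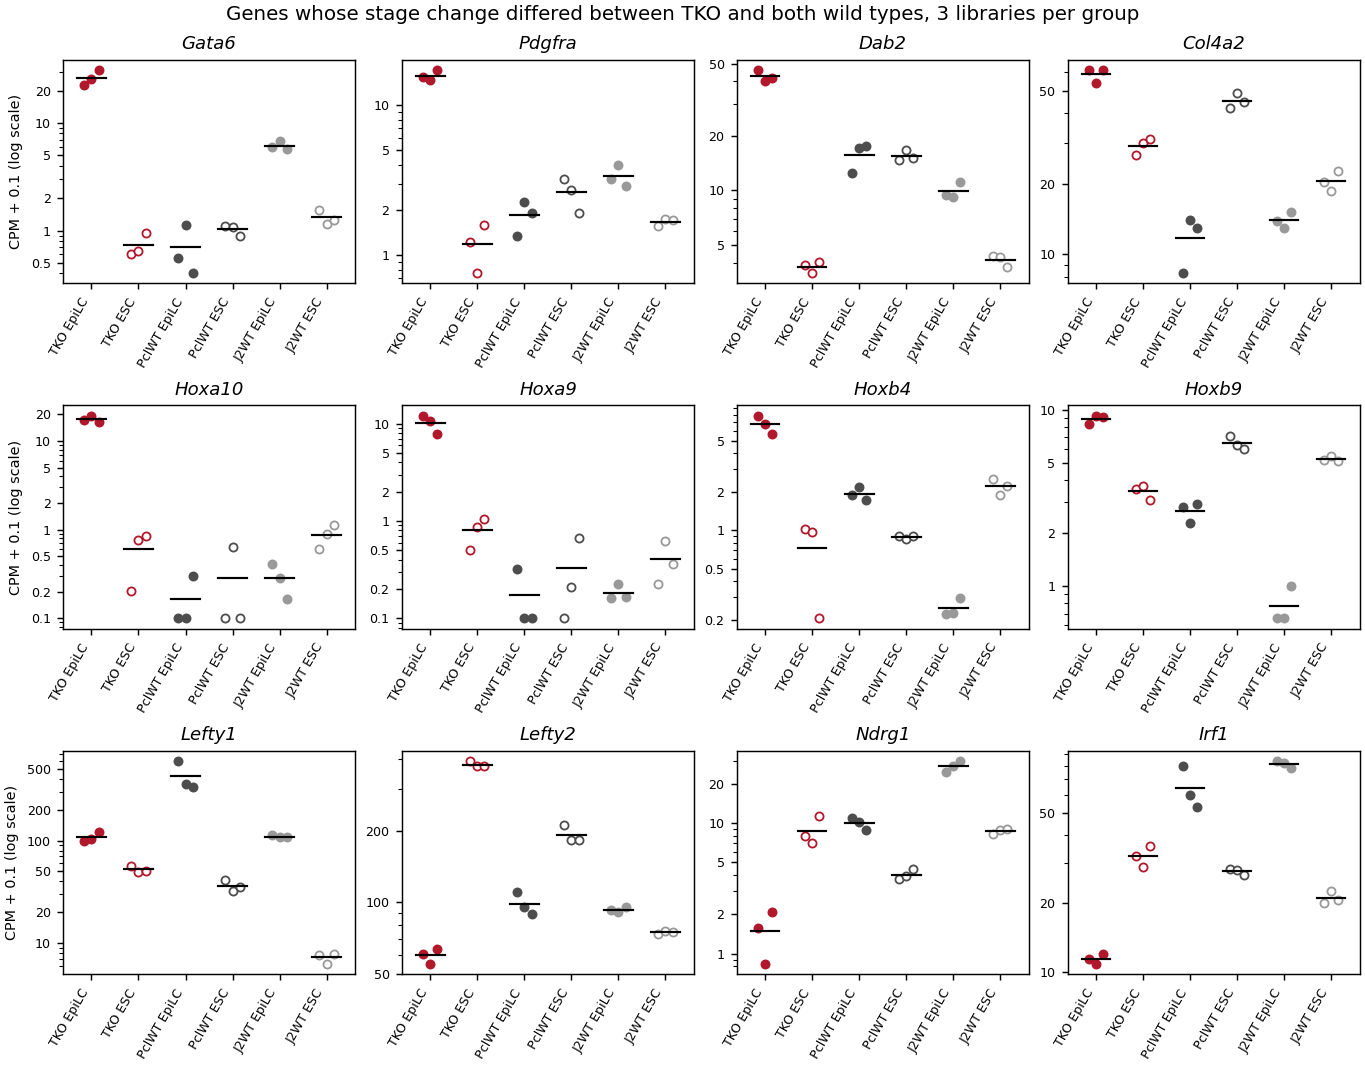
CPM (log axis, 0.1 added) of 12 genes whose stage change differed from PclWT, in TKO, PclWT and J2WT from left to right, EpiLCs filled and left of ESCs (open), with a bar at each group mean (n = 3 libraries). Gata6, Pdgfra and the Hox genes are highest in TKO EpiLCs, while Lefty2, Ndrg1 and Irf1 are lower in TKO EpiLCs than in the EpiLCs of either wild type.

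Hox genes, the homeobox factors that pattern the body axis and are classical Polycomb targets, rose in TKO EpiLCs. Of 38 genes 14 passed the count minimum in TKO. Of these, 10 rose (71.4%, against 13.8% of all genes) and 3 (Hoxc11, Hoxc12 and Hoxc13) fell (21.4%, against 8.75%). A gene that passes only through a stage where it is high has to differ, so the 14 do not stand for all 38. Hoxb9, whose promoter is in the recruited class (chr11:96271457-96276595, plus strand), was at 8.21, 9.19 and 9 CPM in TKO EpiLCs and at 3.46, 3.63 and 2.98 CPM in TKO ESCs, against 2.71, 2.17 and 2.83 CPM in PclWT EpiLCs and 7.03, 6.22 and 5.92 CPM in PclWT ESCs. It rose in TKO (1.39, SE 0.16, adjusted p = 4.61e-07) and fell in PclWT (-1.32, adjusted p = 0.0018), a difference of 2.66 (SE 0.21, adjusted p = 1.73e-05). J2WT followed PclWT, with 0.558, 0.561 and 0.909 CPM in EpiLCs and 5.08, 5.39 and 5.03 CPM in ESCs (difference from TKO 4.28). The Hoxb9 difference held under each alternative in which it was tested, and so did that of Hoxa7 (2.15 from PclWT and 2.88 from J2WT).

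Hoxa10 was at 17.4, 19.2 and 16.3 CPM in TKO EpiLCs and at 0.102, 0.66 and 0.744 CPM in TKO ESCs (5.13, SE 0.25, adjusted p = 3.62e-12), and PclWT had at most 0.202 CPM in EpiLCs and 0.546 CPM in ESCs. Hoxa9 had 12, 10.7 and 7.71 CPM in TKO EpiLCs and 0.407, 0.77 and 0.957 CPM in TKO ESCs. The EpiLC libraries of TKO lay far above those of both wild types for these genes. Differences of stage change from PclWT were 6.29 for Hoxa10 (SE 1.77, adjusted p = 0.0323) and 5.24 for Hoxa9, but they rested on 7 or 8 PclWT counts a gene: without PclWT ESC replicate 2 the adjusted p for Hoxa10 was 0.917, and without PclWT ESC replicate 3 that for Hoxa9 was 0.43. It was 0.0504 to 0.0534 for Hoxa10 without PclWT EpiLC replicate 2 or any 1 TKO EpiLC library, and 0.0502 to 0.0538 for Hoxa9 without PclWT EpiLC replicate 2 or replicate 1 or 2 of either TKO stage. Against J2WT the differences were 7.09 for Hoxa10 (adjusted p = 6.83e-11) and 5.56 for Hoxa9. Hoxb4, with 7.75, 6.65 and 5.57 CPM in TKO EpiLCs and 0.916, 0.88 and 0.106 CPM in TKO ESCs, differed by 2.13 from PclWT and by 7.13 from J2WT, and its adjusted p against PclWT was 0.0625, 0.0557 and 0.0611 without PclWT ESC replicates 1, 2 and 3 and 0.05 without TKO EpiLC replicate 1. Altogether 7 of 14 Hox genes tested for the difference were called above PclWT (50%, against 4.26% of all genes) and none below. Without PclWT EpiLC replicate 1 there were 8 above. Hoxa7, Hoxa9, Hoxa10, Hoxb4 and Hoxb9 were above both wild types, and Hoxd13 was not (-0.28 against J2WT).

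Nodal and activin feedback genes differed the other way. Activin A was in the EpiLC medium of every line. Of 17 genes tested, 4 rose and 4 fell in TKO (23.5% each, against 13.8% and 8.75% of all genes), and 5 had a stage change called below PclWT (29.4%, against 3.22% of all genes) and 1 above. Lefty1, a secreted Nodal antagonist, was at 98.9, 104 and 121 CPM in TKO EpiLCs and at 56.6, 49.8 and 50.8 CPM in TKO ESCs, against 598, 357 and 332 CPM in PclWT EpiLCs and 41, 32.2 and 35 CPM in PclWT ESCs. Its rise of 1.04 in TKO differed from that of PclWT by -2.56 (SE 0.27, adjusted p = 0.00011, and -2.25 without PclWT EpiLC replicate 1) and from that of J2WT by -2.92. That rise was under 1 without TKO ESC replicate 2 (0.998) and without TKO EpiLC replicate 3 (0.95). Lefty2 fell, with 60.2, 54.9 and 63.6 CPM in TKO EpiLCs and 392, 372 and 372 CPM in TKO ESCs, against 110, 95 and 88.9 CPM in PclWT EpiLCs and 212, 182 and 182 CPM in PclWT ESCs, a difference of -1.74 (SE 0.14, adjusted p = 1.58e-05) and of -3.02 from J2WT. In TKO EpiLCs the levels of both antagonists lay below every PclWT EpiLC library. Fst, follistatin, which binds activin, fell by 3.90 in TKO (differences of -2.46 from PclWT and -2.69 from J2WT). Nodal itself had a change of -0.54 in TKO and -0.47 in PclWT. The receptor gene Acvr1b was below PclWT (-1.06) but not below J2WT (0.38).

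Some germline and imprinted genes had a stage change called above PclWT, and fewer of them exceeded J2WT as well. Of 18 germline genes tested 11 rose in TKO (61.1%, against 13.8% of all genes), and 8 of 19 had a stage change above PclWT (42.1%, against 4.26%) and none below, which became 11 and 1 without PclWT EpiLC replicate 1. Tdrd1, a piRNA pathway protein, rose by 3.85, Mael by 3.32 and the helicase gene Ddx4 by 1.59, with differences of 2.05, 2.27 and 1.34 from PclWT and of -0.79, -0.47 and -0.49 from J2WT. Sycp1, a synaptonemal complex gene, was the member above both (1.10 and 1.35). Of 21 imprinted genes tested 10 rose (47.6%, against 13.8% of all genes) and 2 (H19 and Plagl1) fell (9.52%, against 8.75%), and 7 of 22 had a stage change above PclWT (31.8%, against 4.26%), 5 without PclWT EpiLC replicate 1. Impact was called below PclWT (-1.05), though short of 1 in size without PclWT ESC replicate 2 (-0.98), PclWT EpiLC replicate 2 (-0.99) or 3 (-0.93), TKO ESC replicate 1 (-0.96) or TKO EpiLC replicate 2 (-0.999), and it differed by 0.47 from J2WT. Grb10, an imprinted growth inhibitor, was at 146, 151 and 152 CPM in TKO EpiLCs and at 13.3, 14.8 and 12.5 CPM in TKO ESCs (3.47, SE 0.07, adjusted p = 1.7e-17), with differences of 2.23 from PclWT and 2.74 from J2WT. In PclWT it was at 263, 409 and 395 CPM in EpiLCs and at 144, 164 and 161 CPM in ESCs, so the larger change in TKO went with a lower level in TKO ESCs. Grb10 and Rian, a maternally expressed RNA (1.27 and 2.79), were the imprinted genes above both wild types.

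A total of 11 protein-coding genes went in opposite directions in TKO and PclWT, 4 higher and 7 lower in TKO EpiLCs, each with a called difference. Ndrg1, a stress-responsive gene of the recruited class, had 1.48, 0.739 and 2 CPM in TKO EpiLCs and 7.84, 6.93 and 11.2 CPM in TKO ESCs, against 10.8, 10.2 and 8.71 CPM in PclWT EpiLCs and 3.61, 3.82 and 4.32 CPM in PclWT ESCs. The stage change was -2.66 in TKO (SE 0.27, adjusted p = 1.01e-07) and 1.32 in PclWT, a difference of -4.03 (SE 0.36, adjusted p = 3.62e-05), and it differed from that of J2WT by -4.34. Irf1, an interferon regulatory factor, had 11.3, 10.8 and 11.9 CPM in TKO EpiLCs and 32.3, 28.8 and 35.6 CPM in TKO ESCs, against 79.7, 59.9 and 52.7 CPM in PclWT EpiLCs and 28.1, 27.8 and 26.6 CPM in PclWT ESCs (difference -2.77, SE 0.20, adjusted p = 6.36e-06, and -3.50 from J2WT). For both genes TKO EpiLCs were lowest among the 4 groups, with no overlap. PclWT EpiLCs were highest for Irf1, while for Ndrg1 they overlapped TKO ESCs. Irgm1, an interferon-induced GTPase, fell by 2.16 in TKO and rose by 1.28 in PclWT (differences of -3.51 from PclWT and -7.11 from J2WT). Acss1, a mitochondrial acetyl-CoA synthetase, fell by 2.93 in TKO and rose by 1.10 in PclWT, but it also fell in J2WT (-1.64). Xaf1 (-5.20 from PclWT and -4.15 from J2WT) and Oasl2, which had 1.01, 0.845 and 1 CPM in TKO EpiLCs and 7.55, 7.25 and 8.1 CPM in PclWT EpiLCs (-3.95 from PclWT and -4.01 from J2WT), were among the largest differences below PclWT. These genes were picked by the size of their differences, and interferon genes as a group were not tested.

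Against QKO, the line without JARID2 as well, the stage change of TKO was called different for 581 of 12615 genes (4.61%), higher for 240 (1.9%) and lower for 341 (2.7%), and r across the 12251 genes tested in both lines was 0.907. The naive list separated these lines most: 10 of 19 genes fell further in TKO (52.6%, against 2.7% of all genes) and Dppa3 was the 1 above. Tbx3 was at 45.8, 41 and 42 CPM in TKO EpiLCs and at 534, 543 and 533 CPM in TKO ESCs, against 140, 149 and 148 CPM in QKO EpiLCs and 564, 573 and 590 CPM in QKO ESCs, a difference of -1.65 (SE 0.07, adjusted p = 3.2e-15). Nanog stood at 422, 488 and 430 CPM in QKO EpiLCs (difference -1.28) and Esrrb at 371, 393 and 381 CPM (-1.26), both above every TKO EpiLC library. Prdm14 (-1.78), Tcl1 (-1.85), Jam2 (-1.89), Klf2 (-1.27), Tfcp2l1 (-1.27), Klf5 (-1.11) and Nr0b1 (-1.08) made up the 10. Dppa3 had 3.42, 2.75 and 3.43 CPM in TKO EpiLCs and 0.814, 1.43 and 1.49 CPM in TKO ESCs, against 0.411, 0.459 and 0.262 CPM in QKO EpiLCs and 7.56, 11.4 and 9.41 CPM in QKO ESCs, opposite changes that differed by 5.99 (SE 0.42, adjusted p = 6.02e-11).

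Recruited genes also fell further in TKO than in QKO. Of 342 tested, 49 had a lower stage change in TKO (14.3%, against 2.7% of all genes) and 5 a higher one, and the class medians were -0.96 in TKO and -0.65 in QKO. Inhbb, a subunit of activin and inhibin, was among them (-2.94, SE 0.16, adjusted p = 5.88e-13), as were Aqp3, a water channel gene (-2.74), and Ndrg1. Among displaced genes 7 of 73 were called higher (9.59%, against 1.9% of all genes) and 4 lower (5.48%, against 2.7%). Primitive endoderm genes rose more in TKO than in QKO in 7 of 14 cases (50%, against 1.9% of all genes). Gata6 was among them (1.98, adjusted p = 0.00222), with QKO EpiLC values of 12.3, 11.7 and 13.8 CPM between those of TKO and of both wild types. Dab2 exceeded QKO by 2.50. The Hoxa10 difference of 3.40 went with higher levels in QKO at both stages, 30.1, 29.8 and 29.8 CPM in QKO EpiLCs and 8.98, 8.93 and 9.07 CPM in QKO ESCs, so that the larger stage change in TKO started from near 0 in TKO ESCs.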

How the data were processed

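Poly(A) RNA-seq reads had been aligned with STAR to Ensembl GRCm38 and the authors deposited counts per gene for each library. The column counted without regard to strand was used, so reads of a gene and of one overlapping it or antisense to it cannot be separated, and near-identical copies are uncertain. Library totals and the share of reads not assigned to a gene (23.22% to 30.24%) were taken from the same files, and summary rows were left out of library sizes. The 12 remaining libraries of the series were not analysed here.

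Genes whose mean normalized count reached 15 were tested with edgeR 4.0.16 (quasi-likelihood, TMM factors) in R 4.3.3, with the 6 libraries of a line for its stage change and the 12 libraries of a pair of lines for the difference of their stage changes. Genes were called at an adjusted p (Benjamini-Hochberg over all genes tested) under 0.05 and an absolute log2 change over 1. The thresholds are those of the study's methods, where DESeq2 was used, which served as an alternative (1.42.0). Standard errors (SE) were taken as the log2 change over the square root of the F statistic. CPM used the TMM library sizes. Alternatives were RLE factors, no count minimum or one of 50, each library left out, protein-coding genes only, J2WT in place of PclWT, and the replicate number as a block. A stage change of PclWT fitted with the 12 libraries of TKO and PclWT was added after the data had been seen.

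Replicate numbers did not pair the TKO libraries (correlations of the deviations from the group means of -0.095, 0.037 and -0.182), nor the QKO libraries (-0.01, 0.116 and 0.07). In PclWT the same-number correlations were 0.453, 0.243 and 0.206, all over 0.1. Those of EpiLC replicate 3 with ESC replicate 2 (0.257) and of EpiLC replicate 2 with ESC replicate 3 (0.191) were similar. Replicate 1 of either stage correlated negatively with replicates 2 and 3 of the other (-0.221 to -0.421). Replicate 1 thus stood apart at both stages, and pairing by number was not shown. On simulated counts with known changes, the test recovered 100% of genes changed by 1.5 on the log2 scale in the TKO comparison (12684 genes), 83.7% in the difference from PclWT (12812 genes) and 99% in that from QKO (12615 genes). The members and the gene lists were chosen with earlier results of these data known. Genes were named if they were on a list, among the 10 largest called changes in TKO or differences from PclWT in each direction, the 5 largest against QKO or within the recruited and displaced classes, or among the 10 largest that went opposite ways in TKO and PclWT. Gene models without a proper name and non-coding genes were left out of the rankings, and some named results are not reported here. Site classes came from the study's supplementary list (398 recruited, 78 displaced and 1998 maintained sites), with GENCODE starts on GRCm38, and 9 genes near more than 1 class were left out. Promoter windows are those of RefSeq for GRCm38.p6.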

Additional observations from a re-analysis of the deposited data

Results flagged for a closer look

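Stage changes that differed between lines by a test of the difference itself are collected here (edgeR, adjusted p under 0.05 and a log2 difference over 1). TKO exceeded PclWT at 546 genes and was below it at 412. The largest differences above PclWT included Cubn (7.36), Ndnf (6.99), Gsx1 (6.97), Hoxa10 (6.29), Gata6 (5.92), Hoxa9 (5.24), Amot (4.34), Pdgfra (4.30) and Oprd1 (4.18). Among them, Gsx1, Hoxa10, Gata6, Hoxa9, Amot, Pdgfra and Oprd1 were also called above J2WT, whereas Cubn (-0.10) and Ndnf (-0.03) were not. Amot, a regulator of Hippo signalling, had 111, 108 and 116 CPM in TKO EpiLCs and 3.05, 3.08 and 3.72 CPM in TKO ESCs, against 7.33, 17.4 and 16.4 CPM in PclWT EpiLCs and 6.32, 9.17 and 10 CPM in PclWT ESCs. Without PclWT ESC replicate 1 the adjusted p was 0.929 for Ndnf and 0.0633 for Oprd1, a delta opioid receptor gene, and with the replicate block it was 0.0531 for Ndnf. For Gsx1 the adjusted p of 0.0497 became 0.1 with the replicate block, 0.0871 without a count minimum, 1 without PclWT ESC replicate 2, 0.0509 and 0.0535 without PclWT EpiLC replicates 2 and 3, and 0.0724 to 0.0803 without any 1 of the 6 TKO libraries. The 10 largest below PclWT were Elobl (-5.93), Ppp1r14d (-5.31), Xaf1 (-5.20), Trpm1 (-5.03), Sp5 (-4.94), Acss1 (-4.09), Ndrg1 (-4.03), Oasl2 (-3.95), Gpnmb (-3.93) and Cdhr1 (-3.85).

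TKO exceeded QKO at 240 genes and was below it at 341. The 5 largest above were Dppa3 (5.99), Gsx1 (4.74), Itga1 (4.29), Tmem54 (3.57) and Hoxa10 (3.40), and the 5 largest below were Elobl (-4.14), Cemip (-3.46), Notch4 (-3.27), Serpinb1a (-3.03) and Serpinb6c (-3.01). Gsx1 was not called against QKO with DESeq2 (adjusted p = 0.073), the replicate block (0.0662), no count minimum (0.103) or without any 1 of 10 libraries (0.0542 to 0.152), which were all 6 of TKO, QKO ESC replicates 1 and 3 and QKO EpiLC replicates 2 and 3. Elobl was not called with DESeq2 (0.0559) or without TKO EpiLC replicate 1 (0.0679) or 2 (0.0553), Serpinb1a with DESeq2 (0.0711) or without TKO EpiLC replicate 1 (0.104), TKO EpiLC replicate 2 (0.082) or QKO EpiLC replicate 3 (0.12), and Cemip without QKO EpiLC replicate 3 (0.0633).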

How the results depend on the processing

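In TKO, the 1747 genes called higher and 1110 called lower became 1737 and 1119 with RLE factors, 1731 and 1122 with DESeq2, 1650 to 1818 and 1067 to 1185 when each library was left out, and 1745 and 1114 with the replicate block. Without a count minimum they were 2937 and 1766, and with a minimum of 50 counts the higher ones were 1104, since other genes were tested. Differences from PclWT were called at 354 genes (higher) with the minimum of 50, at 1478 (higher) and 1171 (lower) with J2WT in place of PclWT, at 467 to 656 and 323 to 441 without single libraries, at 570 and 385 with DESeq2 and at 554 and 386 with the replicate block. The block took the adjusted p of Hoxa10 to 0.0575 and that of Hoxa9 to 0.0562. Differences from QKO were called at 126 and 210 genes with the minimum of 50, at 213 to 246 and 324 to 346 without single libraries, and at 228 and 333 with the block. The median of displaced genes in TKO was 2.23 with the start inside the site and 2.12 to 2.25 without single libraries. PclWT alone gave 1298 and 796 genes with the 12-library fit. Of 109 genes named for the TKO stage change, 106 kept direction and call under every alternative and none changed sign. Of 77 named for the difference from PclWT, 31 kept direction and call throughout, 13 lost the call under at least 1 alternative without a change of sign, and 33 changed sign with J2WT in place of PclWT: Aqp3 (3.54), Bcl6b (-3.45), Car4 (-0.90), Cdh1 (-0.22), Cdkn1c (-1.11), Cubn (-0.10), Ddx4 (-0.49), Dlk1 (-0.76), Dll1 (-2.70), Dnmt3a (-0.35), Dusp4 (-4.40), Fgf4 (-1.42), Fignl2 (0.26), Gata4 (-0.59), Gpnmb (1.09), Hoxd13 (-0.28), Impact (0.47), Jph4 (-3.05), Klf2 (0.32), Mael (-0.47), Myb (-0.15), Ndnf (-0.029), Serpinb1a (0.38), Socs3 (0.94), Sox17 (-0.031), Sox4 (-1.25), Sp5 (3.61), Tcl1 (0.72), Tdh (0.445), Tdrd1 (-0.79), Tmem54 (-4.70), Trpm1 (0.97) and Wt1 (-0.039). The cause was not tested. Of the 40 named for the difference from QKO, 32 kept direction and call throughout, 8 lost the call under at least 1 alternative and none changed sign. Depth limits what can be said of genes under the count minimum, which were not tested.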

Other observations

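Of 22 epithelial and mesenchymal genes tested for the difference, 4 had a stage change called above PclWT (18.2%, against 4.26% of all genes) and none below. They were Cdh1, Grhl2, Zeb2 and Jam2. Cdh1, which encodes E-cadherin, had a log2 stage change of 0.24 in TKO and -1.18 in PclWT, a difference of 1.35 (edgeR, adjusted p = 0.00011), against -0.22 from J2WT. Esrp1, a splicing regulator of epithelial cells, rose by 4.97 in TKO and 4.84 in PclWT, Cldn3 by 1.82 and 1.91 and Epcam by 2.05 and 2.19, and none of the 3 had a called difference between these lines. Grhl2, an epithelial transcription factor, rose by 3.40 in TKO and 1.30 in PclWT, a called difference of 2.05 (edgeR, adjusted), against -0.85 from J2WT. The mesenchymal factor Zeb2 rose by 3.49 in TKO, 2.91 more than in PclWT and 2.62 more than in J2WT. Of 21 epithelial and mesenchymal genes tested, 9 rose (42.9%, against 13.8% of all genes) and 4 fell (19%, against 8.75%) in TKO.

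Of the neuroectoderm list, 3 genes were tested in TKO, Sox1 (1.63) and Pax6 (3.60) rose, and Nes was at 0.91. The CPM summed over the 14 list genes ranged from 126.85 to 140.39 in TKO EpiLCs and from 46.71 to 54.55 in TKO ESCs, against 35.84 to 44.85 in PclWT EpiLCs and 50.09 to 58.02 in PclWT ESCs. They were 56.5 to 59.38 in J2WT EpiLCs, 46.15 to 47.45 in J2WT ESCs, 64.66 to 74.41 in QKO EpiLCs and 30.42 to 34.86 in QKO ESCs. Summed over the 14 fibroblast and feeder genes, the level was 1006.77 to 1122.75 CPM in TKO EpiLCs and 2267.91 to 2823.18 CPM in TKO ESCs, with 4 of the 14 at 0 counts in TKO EpiLCs. The EpiLC sums were 351.56 to 984.69 in PclWT, 723.73 to 774.92 in J2WT and 1665.31 to 1821.26 in QKO. The ESC sums were 1181.41 to 1608.5 in PclWT, 2221.96 to 2574.6 in J2WT and 2568.75 to 3136.27 in QKO. Only 6 of the 14 passed the count minimum in TKO, and Col1a2, Col3a1, Postn, Lum and Dcn did not.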
